A study of Mus musculus with 58 samples.

Results

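The 40 genes described here are fibrosis and stellate cell genes: 13 collagens, the glycoproteins and proteoglycans that sit between collagen fibres, the enzymes that crosslink or cut the matrix, TGF-beta and PDGF signalling genes, contractile genes and markers of the cells that make the matrix. They were picked by name, with earlier results of these data known, and all 40 symbols were found among the 24537 genes of the table of counts. They were measured by polyA RNA-seq of whole livers from 58 male C57BL6/J mice. Every mouse, controls included, had received an AAV8 vector in which the hepatocyte promoter TBG drives Myc, a growth-promoting transcription factor, or the control protein mApple, which fluoresces red. Each mouse was gavaged with vehicle or with ruxolitinib, an inhibitor of the JAK1 and JAK2 kinases, at 45 mg/kg 2 times per day with weekend breaks for 30 days. The groups were old mApple vehicle (8 livers), old mApple ruxolitinib (9), old Myc vehicle (11), old Myc ruxolitinib (14), young mApple vehicle (6) and young Myc ruxolitinib (10). Young mice were 4 months old and all were sequenced in the second of 2 batches. Old mice were 25 months old in the first batch and 24 months old in the second, so age among the old mice and sequencing batch cannot be told apart. Of the young livers, neither a Myc vehicle nor an mApple ruxolitinib group was analysed here.

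Hepatic stellate cells lie between the hepatocytes and the sinusoidal endothelium and store vitamin A. After injury they can turn into myofibroblasts, which contract and secrete fibrillar collagen, and TGF-beta and PDGF are among the best known signals for that change. Portal fibroblasts, vascular smooth muscle cells and endothelial cells make matrix too, so the RNA of these genes in a whole liver comes from several cell types, and fewer cells of a type and less RNA per cell cannot be told apart.

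The library totals ran from 10.68 to 40.98 M (mega) counts, with a median of 14.59 M. Levels are given as CPM, the counts of a gene per M counts of its library, scaled between libraries by edgeR's TMM factors. The labels list each library as a separate sample of its group, and p-values measure the spread between these samples. A gene is said to be called, to have risen or to have fallen where edgeR's p-value, adjusted over all genes tested, was under 0.05. The vector gene Myc had median levels of 7.65 to 15.6 CPM in the mApple groups and of 33.0 to 50.9 CPM in the Myc groups. Library 870, labelled old Myc vehicle, had 6.93 CPM of Myc, within the mApple range, and library 855, labelled old mApple vehicle, had 56.7 CPM, within the Myc range. Without library 870, 3 of the 40 genes were called for Myc in old vehicle livers, as with it. The calls of Mmp14, Col15a1 and Des in that comparison were also kept without library 855, and leaving out both libraries was not tried. Leaving out 1 library at a time there, 1914 to 3070 of all genes were called. Of 17 further stellate cell markers in the table, 16 had a median above 1 CPM, and so did all 14 hepatocyte markers. Other lists were less well detected: 6 of 10 portal fibroblast and 5 of 10 vascular smooth muscle genes had a median above 1 CPM. So did 3 of 10 neutrophil and 2 of 12 T and NK cell genes.

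The mean level of the 40 genes, taken as the average of log2(CPM + 1) in each library, set a few livers apart from the rest. It was highest in libraries 861 (5.87) and 860 (5.19) of the old Myc ruxolitinib group and in library 865 (5.59) of the old mApple ruxolitinib group, all of the first batch. It was lowest in libraries 1149 (2.37) and 1154 (2.69) of the old Myc ruxolitinib group, both of the second batch. Library 861 held the highest level of 22 of the 40 genes among the 58 livers, library 865 of 12, and library 1149 the lowest level of 28. Libraries 860 and 861 also had high levels of the leukocyte list (7.02 and 6.56) and of the Kupffer cell list (8.90 and 8.27), and low levels of the hepatocyte list (9.69 and 9.59, against at most 11.71 in any liver), on the same log2 scale. Libraries 1149 and 1154 were low for the separate stellate cell list (1.89 and 2.33) and for the sinusoidal endothelial list (3.49 and 3.99) as well. The part of these other cell types in the results was not tested, and the results that rest on these libraries are given with and without them.

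**Figure D1:**
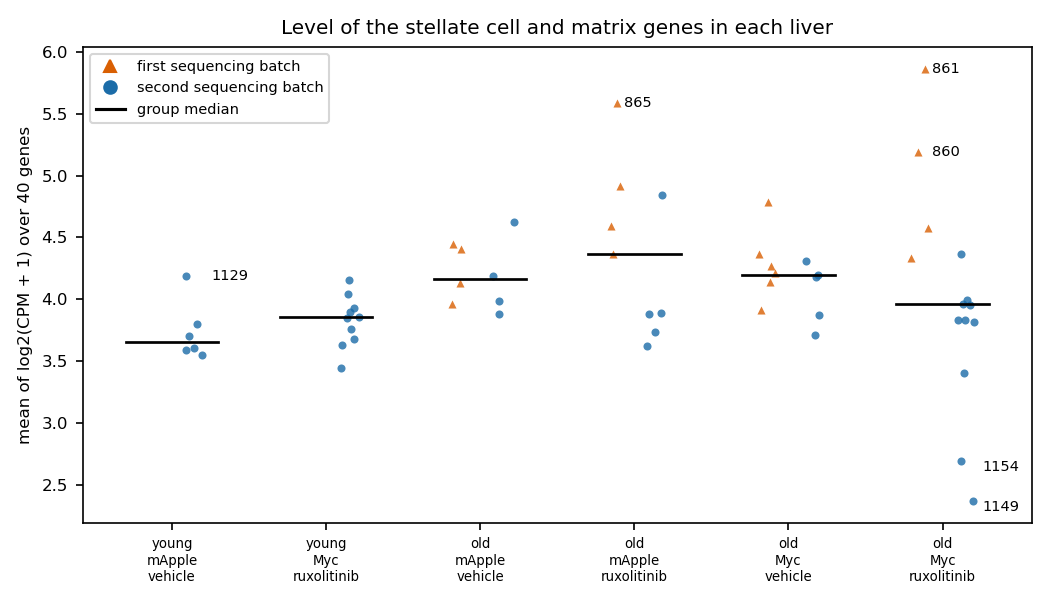
Mean of log2(CPM + 1) over the 40 genes (vertical axis) in each of the 58 livers, by group (horizontal axis). Triangles are livers of the first sequencing batch, circles livers of the second, and bars the group medians. Libraries 860, 861 and 865 lie above the other old livers, and libraries 1149 and 1154 lie below all others.

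Per kilobase of counted exon, the levels ran over a wide range. Col18a1, whose product collagen XVIII is the precursor of endostatin, stood first with a median of 213 CPM per kb over the 58 livers. The small proteoglycans Dcn (76.5 CPM per kb) and Bgn (53.5 CPM per kb) came next, followed by the collagen-binding glycoprotein Sparc (24.1 CPM per kb), the intermediate filament gene Vim (18.0 CPM per kb) and the collectin gene Colec11 (17.3 CPM per kb), known as a stellate cell product in mouse liver. The lysyl oxidase gene Lox was the lowest at 0.106 CPM per kb. Timp1 was counted at 0 in 4 livers.

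Most of the 40 genes varied together between livers of the same group and batch. After the mean of each of the 10 groups by batch was subtracted, the Spearman correlation of a gene with the mean of the other 39 over the 58 livers was at least 0.8 for 20 genes, between 0.5 and 0.8 for 15 and below 0.5 for 5, with a median of 0.80. Col6a3, a chain of the beaded filament collagen VI, followed the others most closely (0.94). The 5 genes that did not follow them were Col18a1 (-0.61), Col15a1 (-0.044), Mmp14 (0.16), Lrat (0.33) and Timp1 (0.46). These values are descriptions, since all genes of a liver share its library and its scaling. Among 12736 other genes, those whose pattern was most like the mean of the 40 were Adamts2 (Spearman 0.93), which trims procollagen, Fstl1 (0.91), Ehd2 (0.90), and the laminin genes Lama2 (0.90) and Lamb1 (0.89).

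The 40 genes differed in the marker list they followed most closely, and differences between lists were not tested. The separate stellate cell list was the closest of 14 lists for 15 of them, among them Reln, Dcn, Bgn, Pdgfrb, Timp3 and Colec11. A portal fibroblast list was the closest for 17, among them Col1a1, Col1a2, Col3a1, the 3 collagen VI genes, Mmp2 and Vim. The division was not clean: Col4a1 was closest to the stellate cell list and Col4a2 to the portal fibroblast list, although they followed each other (Spearman 0.96). Des, known as a stellate cell marker in rodents, was also closest to the portal fibroblast list. Reln followed the stellate cell list with Spearman's rho 0.89 and Pearson's r 0.91 (permutation, adjusted p = 7.09e-05 and 5.96e-05, r = 0.89 without the 2 libraries farthest from the median). Col1a1 followed the portal fibroblast list with Spearman's rho 0.91 and Pearson's r 0.89 (permutation, adjusted p = 7.09e-05 and 5.96e-05, r = 0.89 without the 2 libraries farthest from the median). Acta2, the smooth muscle actin used as a myofibroblast marker, was closest to the vascular smooth muscle list, with Spearman's rho 0.85 and Pearson's r 0.85 (permutation, adjusted p = 7.09e-05 and 5.96e-05, r = 0.83 without the 2 libraries farthest from the median). Col18a1 was closest to the hepatocyte list, with Spearman's rho 0.59 and Pearson's r 0.66 (permutation, adjusted p = 5.17e-04 and 0.00311, r = 0.52 without the 2 libraries farthest from the median). Col15a1 stayed near 0 with every list, its highest being the neutrophil list, with Spearman's rho 0.15 and Pearson's r 0.068 (permutation, adjusted p = 0.334 and 0.643, r = 0.19 without the 2 libraries farthest from the median). The family held 560 relations, tested with 100000 permutations within group and batch and adjusted by Benjamini-Hochberg. The repeated adjusted p-values of 7.09e-05 (Spearman) and 5.96e-05 (Pearson) are the smallest these permutations could give, shared by many relations, so they do not favour 1 list over another. In the portal fibroblast list 3 genes (Eln, Fbln2, Mfap4) are matrix genes themselves.

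**Figure D2:**
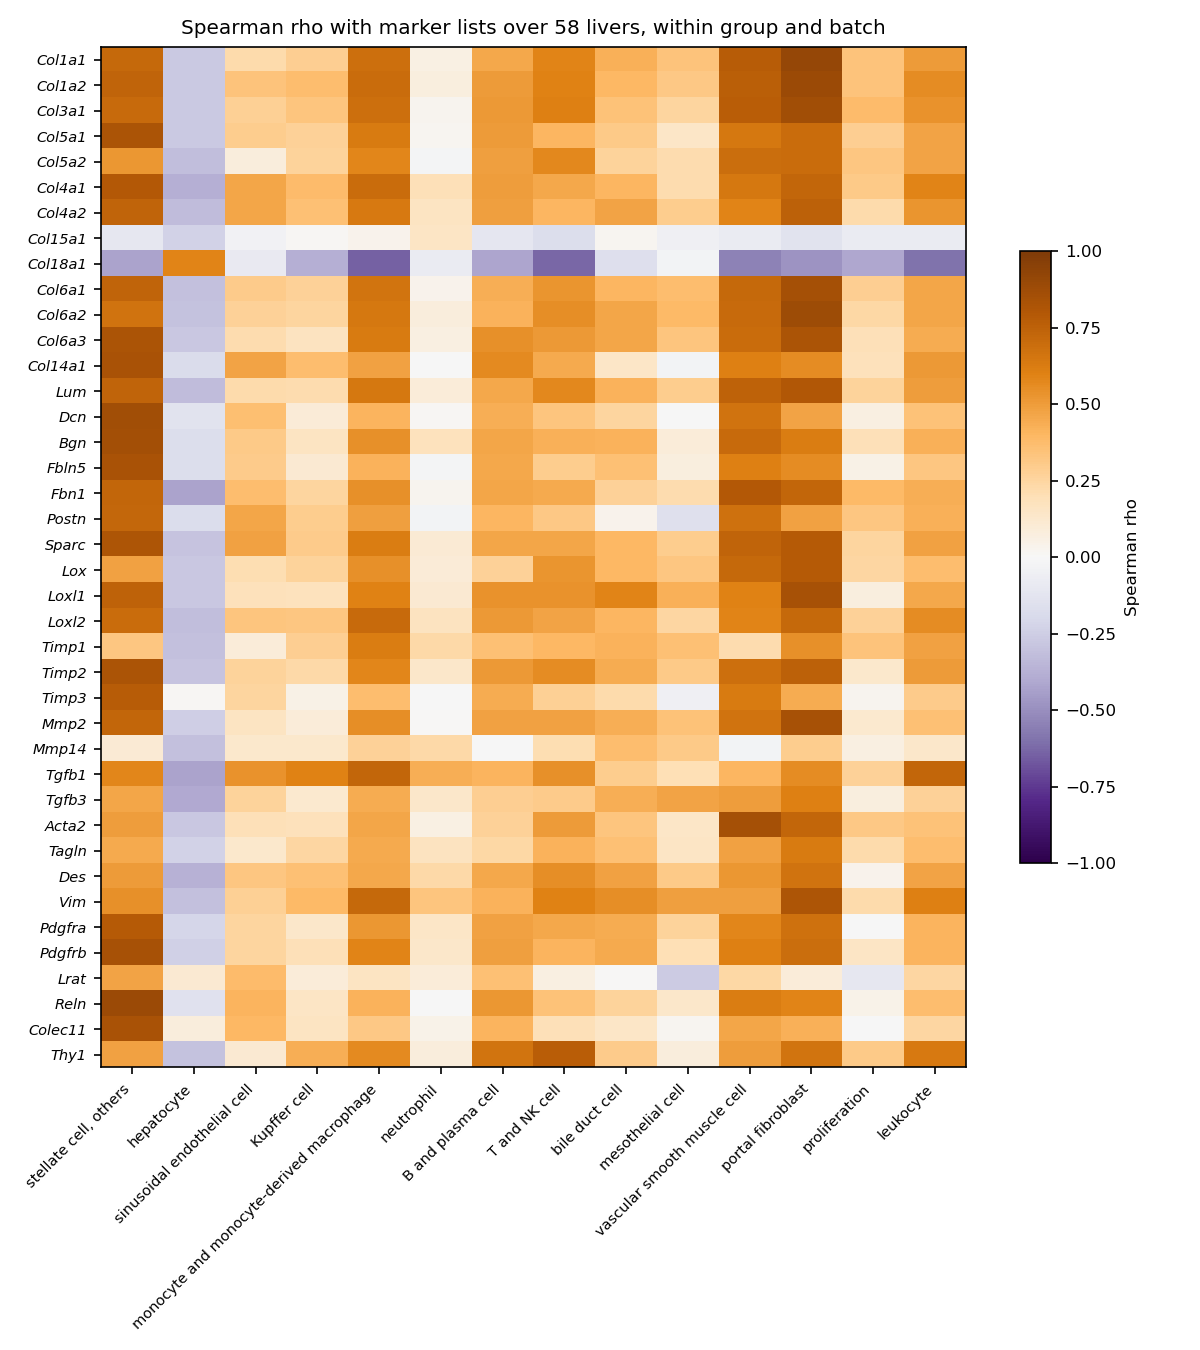
Spearman correlation over 58 livers, within group and batch, between each of the 40 genes (vertical axis) and the mean level of 14 cell type marker lists (horizontal axis); brown is positive and purple negative. Most of the genes are brown in the stellate cell, smooth muscle and portal fibroblast columns, while Col18a1 is purple there and brown for hepatocytes, and Col15a1 and Mmp14 are pale across the lists.

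Some of the 40 genes are neighbours in the mm10 genome. Col4a1 and Col4a2, the chains of the main basement membrane collagen, start head to head on chromosome 8 with 22 bases of overlap between the counted transcripts, and their levels followed each other within group and batch (Spearman 0.96). Because the counting used no strand, reads in the overlap cannot be assigned to either gene. Col6a1 and Col6a2 lie 85387 bases apart on chromosome 10 (Spearman 0.95), Lum and Dcn 47337 bases apart on the same chromosome (Spearman 0.71), and Col3a1 and Col5a2 24624 bases apart on chromosome 1 (Spearman 0.79).

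Ruxolitinib was compared with vehicle in the old livers, separately for each vector, to ask what JAK inhibition does to these genes. No member passed the test in either comparison. In old mApple livers 0 of 40 were called by edgeR's quasi-likelihood test at an adjusted p under 0.05, where 0.390% of all 13577 genes tested were called, and 0 were under an unadjusted p of 0.05, where 9.70% of all genes were. DESeq2 and limma voom called 0 as well. The median difference of the 40 was 0.26 (log2, ruxolitinib over vehicle), beside 0.009 for all genes, and 35 of the 40 estimates lay above 0. With limma voom the median was 0.06 and 14 estimates changed sign. In old Myc livers 0 of 40 were called, where 0.523% of all 13774 genes were, 1 was under an unadjusted p of 0.05, where 14.2% of all genes were, and DESeq2 and limma voom called 0. The median of the 40 was 0.22, beside 0.022 for all genes, with 30 estimates above 0. With limma voom this median was -0.11 and 25 estimates changed sign.

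The medians were positive in the first batch and negative in the second. Fitted on the first batch alone, the median was 0.77 in mApple livers and 0.99 in Myc livers. Fitted on the second batch alone, it was -0.16 and -0.41. In the first batch alone 6 genes were called higher with ruxolitinib in Myc livers, where 6.8% of all genes were called: Col1a1, Lox, Loxl2, Timp2, Tgfb1 and Vim. Tgfb1, the main fibrogenic TGF-beta ligand, differed there by 2.29 ± 0.45 (log2 ± SE, edgeR adjusted p = 0.0262) and by -0.53 ± 0.20 in the second batch (edgeR adjusted p = 0.437). Lox differed by 3.18 ± 0.79 in the first batch (edgeR adjusted p = 0.0375) and by -0.36 ± 0.41 in the second (edgeR adjusted p = 0.788). No member was called in the first batch of mApple livers or in the second batch of either vector. Libraries 860 and 861 are 2 of the 4 ruxolitinib livers of that first batch. In those 4 livers the leukocyte list ranged from 3.69 to 7.02, against 3.70 to 4.51 in the 6 first-batch vehicle livers, and its part in the calls was not tested. Without libraries 860, 861, 864 and 865, 0 of the 40 were called for either vector, and the medians were 0.021 in mApple and -0.17 in Myc livers. Library 864 had a mean level of 4.60 and the highest neutrophil list level of the 58 livers (5.31). Libraries 856 (4.92) and 1140 (4.845), also old mApple ruxolitinib livers, had higher mean levels and were kept. Without libraries 1149 and 1154, 0 of the 40 were called in Myc livers and the median was 0.36. Without library 861 alone it was -0.065.

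**Figure D3:**
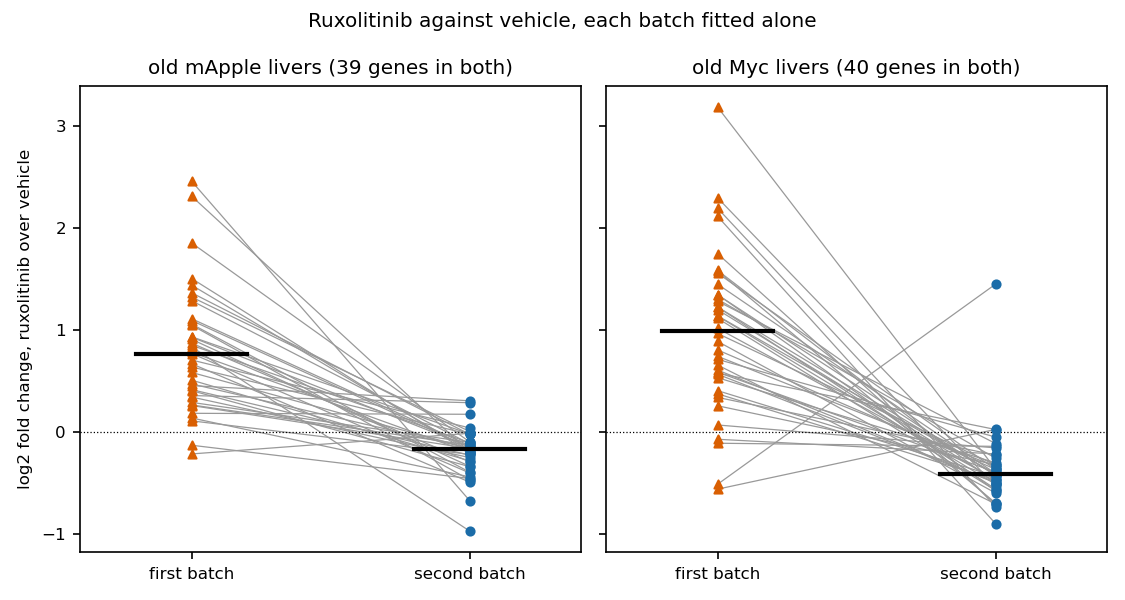
Log2 fold change, ruxolitinib over vehicle (vertical axis), of each gene in the first batch alone and the second batch alone (horizontal axis), for old mApple livers (left, 39 genes) and old Myc livers (right, 40 genes). Lines join the values of a gene and bars are medians. Most genes lie above 0 in the first batch and below 0 in the second.

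By role, the fibrillar collagens had the higher estimates in mApple livers (median 0.63) and the identity genes the lower ones (median -0.055), none of them past the threshold. In old mApple livers the smallest p-values belonged to Lox (1.12 ± 0.57), Mmp2 (0.64 ± 0.38), Col1a1 (0.82 ± 0.51), Col1a2 (0.63 ± 0.40), Sparc (0.35 ± 0.22) and Col6a2 (0.46 ± 0.30), with edgeR adjusted p from 0.531 to 0.623. In old Myc livers they belonged to Lox (1.24 ± 0.56), Tgfb1 (0.65 ± 0.36), Mmp14 (0.27 ± 0.16), Col18a1 (-0.20 ± 0.13), Vim (0.44 ± 0.30) and Tgfb3 (0.44 ± 0.30), with edgeR adjusted p from 0.325 to 0.495. Of 7 companion lists (other matrix genes, collagen processing enzymes, laminins, other proteases, TGF-beta pathway, PDGF ligands, integrins), no gene was called in either comparison by edgeR. The vector-by-drug interaction called 0 of 40 members and 0% of 14067 genes by edgeR, with 0 members under an unadjusted p of 0.05, where 5.18% of all genes were, and DESeq2 and limma voom called 0 members. Its estimates had a median of -0.11, beside 0.0028 for all genes, and the sign of that median rested on few livers. It was -0.32 without libraries 860, 861, 864 and 865, and 8.41e-04 without libraries 1149 and 1154. Leaving out 1 library at a time moved it from -0.31 (without library 861) to 0.019 (without library 865), and it was 0.013 without library 1140. It was 0.20 in the first batch alone and -0.22 in the second. No member was called under any of these settings.

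Myc was compared with mApple in old livers, separately with vehicle and with ruxolitinib. These comparisons share the livers of the ruxolitinib comparisons, so their values are set side by side and not counted as separate support. With vehicle, 3 of 40 members were called by edgeR, where 18.9% of all 13578 genes were: Mmp14 and Des fell, and Col15a1 rose. The median of the 40 was -0.10, beside -0.02 for all genes, and leaving out 1 library moved it from -0.19 (without library 866) to -0.00677 (without library 1136). With ruxolitinib, 0 of 40 were called by edgeR, where 14.4% of all 14029 genes were, and 6 were under an unadjusted p of 0.05, where 29.6% of all genes were. DESeq2 called 1 (Col15a1, higher with Myc) and limma voom 0. The median was -0.14, beside 0.0064 for all genes. Its sign rested on few livers: it was 0.012 without libraries 1149 and 1154 and 0.021 without library 1140, and -0.36 without libraries 860, 861, 864 and 865, when Col15a1 was called.

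Mmp14 encodes the membrane-anchored collagenase MT1-MMP, which also activates MMP2. Its levels in old mApple vehicle livers had a lowest, median and highest value of 64.6, 75.6 and 85.4 CPM, and in old Myc vehicle livers of 42.3, 50.2 and 88.2 CPM. All but 1 of the 11 Myc livers lay below the lowest of the 8 mApple livers, and the exception was library 870, whose Myc level was that of an mApple liver. The difference was -0.50 ± 0.11 (log2 ± SE, edgeR adjusted p = 0.00412), and it was called whichever of the 19 libraries was left out. In the first batch alone it was -0.39 ± 0.19 (edgeR adjusted p = 0.244), and in the second -0.60 ± 0.086 (edgeR adjusted p = 0.00400). With ruxolitinib the mApple livers had 54.2, 68.6 and 108 CPM and the Myc livers 34.6, 55.5 and 119 CPM, which overlapped, and the difference was -0.21 ± 0.17 (edgeR adjusted p = 0.418).

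Col15a1 encodes a basement membrane collagen known for anchoring vessels and muscle fibres. It had 7.12, 12.5 and 17.9 CPM in old mApple vehicle livers and 12.0, 18.8 and 28.0 CPM in old Myc vehicle livers (lowest, median and highest). The groups overlapped, but the median of the Myc livers was above the highest mApple liver. The difference was 0.58 ± 0.15 (edgeR adjusted p = 0.0114), called whichever library was left out but not in either batch alone, where it was 0.61 ± 0.22 and 0.57 ± 0.19 (edgeR adjusted p = 0.116 and 0.119). With ruxolitinib the levels were 7.95, 11.3 and 24.0 CPM with mApple and 8.16, 16.0 and 34.2 CPM with Myc, overlapping, and the difference was 0.49 ± 0.18 (edgeR adjusted p = 0.0660). Des, the intermediate filament desmin, a marker of stellate cells in rodents, had 5.11, 6.77 and 7.70 CPM in old mApple vehicle livers and 3.27, 4.81 and 7.87 CPM in old Myc vehicle livers. These ranges overlapped. The difference was -0.38 ± 0.13 (edgeR adjusted p = 0.0380), and the call was lost without any of 11 of the 19 libraries and under 5 of 9 alternative fits, the single batches among them. Without library 866, 8 members were called, 7 of them lower (Dcn, Bgn, Timp2, Timp3, Mmp14, Des and Reln), where 19% of all genes were called. Without library 1137, 6 were (Col15a1, Dcn, Timp3, Mmp14, Lrat and Reln), where 18.1% of all genes were.

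The bases just before the start sites of the 3 genes called with Myc are shown with their motifs, together with those of Reln, the one member whose window held the CACGTG letters that Myc binds. The promoters are from RefSeq on GRCm38.p6, read 5′ to 3′ on the strand of the gene, 130 bases ending at the base before the start. Capitals mark GC boxes (GGGCGG, or CCGCCC on the other strand) and, in Reln, also CACGTG.
Mmp14 at chr14:54431468-54431597, plus strand: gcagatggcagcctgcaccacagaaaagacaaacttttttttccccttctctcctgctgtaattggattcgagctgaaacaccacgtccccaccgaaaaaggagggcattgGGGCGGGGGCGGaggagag
Des at chr1:75360162-75360291, plus strand: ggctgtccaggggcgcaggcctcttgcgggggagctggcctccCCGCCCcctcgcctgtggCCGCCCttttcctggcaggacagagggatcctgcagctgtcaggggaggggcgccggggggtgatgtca
Col15a1 at chr4:47207882-47208011, plus strand: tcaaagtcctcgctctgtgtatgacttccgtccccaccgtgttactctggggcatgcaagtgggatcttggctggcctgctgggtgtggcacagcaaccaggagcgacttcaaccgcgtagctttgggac
Reln at chr5:22344706-22344835, minus strand: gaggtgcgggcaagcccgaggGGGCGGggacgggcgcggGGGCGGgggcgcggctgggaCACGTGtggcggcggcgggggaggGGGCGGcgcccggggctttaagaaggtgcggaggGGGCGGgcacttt
Mmp14 held a pair of adjoining GC boxes next to its start, Des held 2, Reln held 4 besides the CACGTG, and the Col15a1 stretch held none of the motifs searched. Of the 40 genes, 27 had an entry in the table. In the 250 bases before the start, on both strands, GGGCGG was found in 15 of the 27 (55.6%, beside 32.9% of 27025 promoters), CACGTG in 1 (3.70%, beside 6.05%), TATAAA in 3 (11.1%, beside 13.0%; Col3a1, Postn and Vim), TTCNNNGAA, the letters of STAT sites, in 1 (3.70%, beside 7.18%; Colec11), and CAGAC, the letters of SMAD sites, in 10 (37.0%, beside 42.1%). The CArG box, known from smooth muscle genes, was found in 0 of the 27, beside 1.4% of all. The smooth muscle gene Tagln had no entry, so this count does not cover it. A match describes letters and not a bound site.

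**Figure D4:**
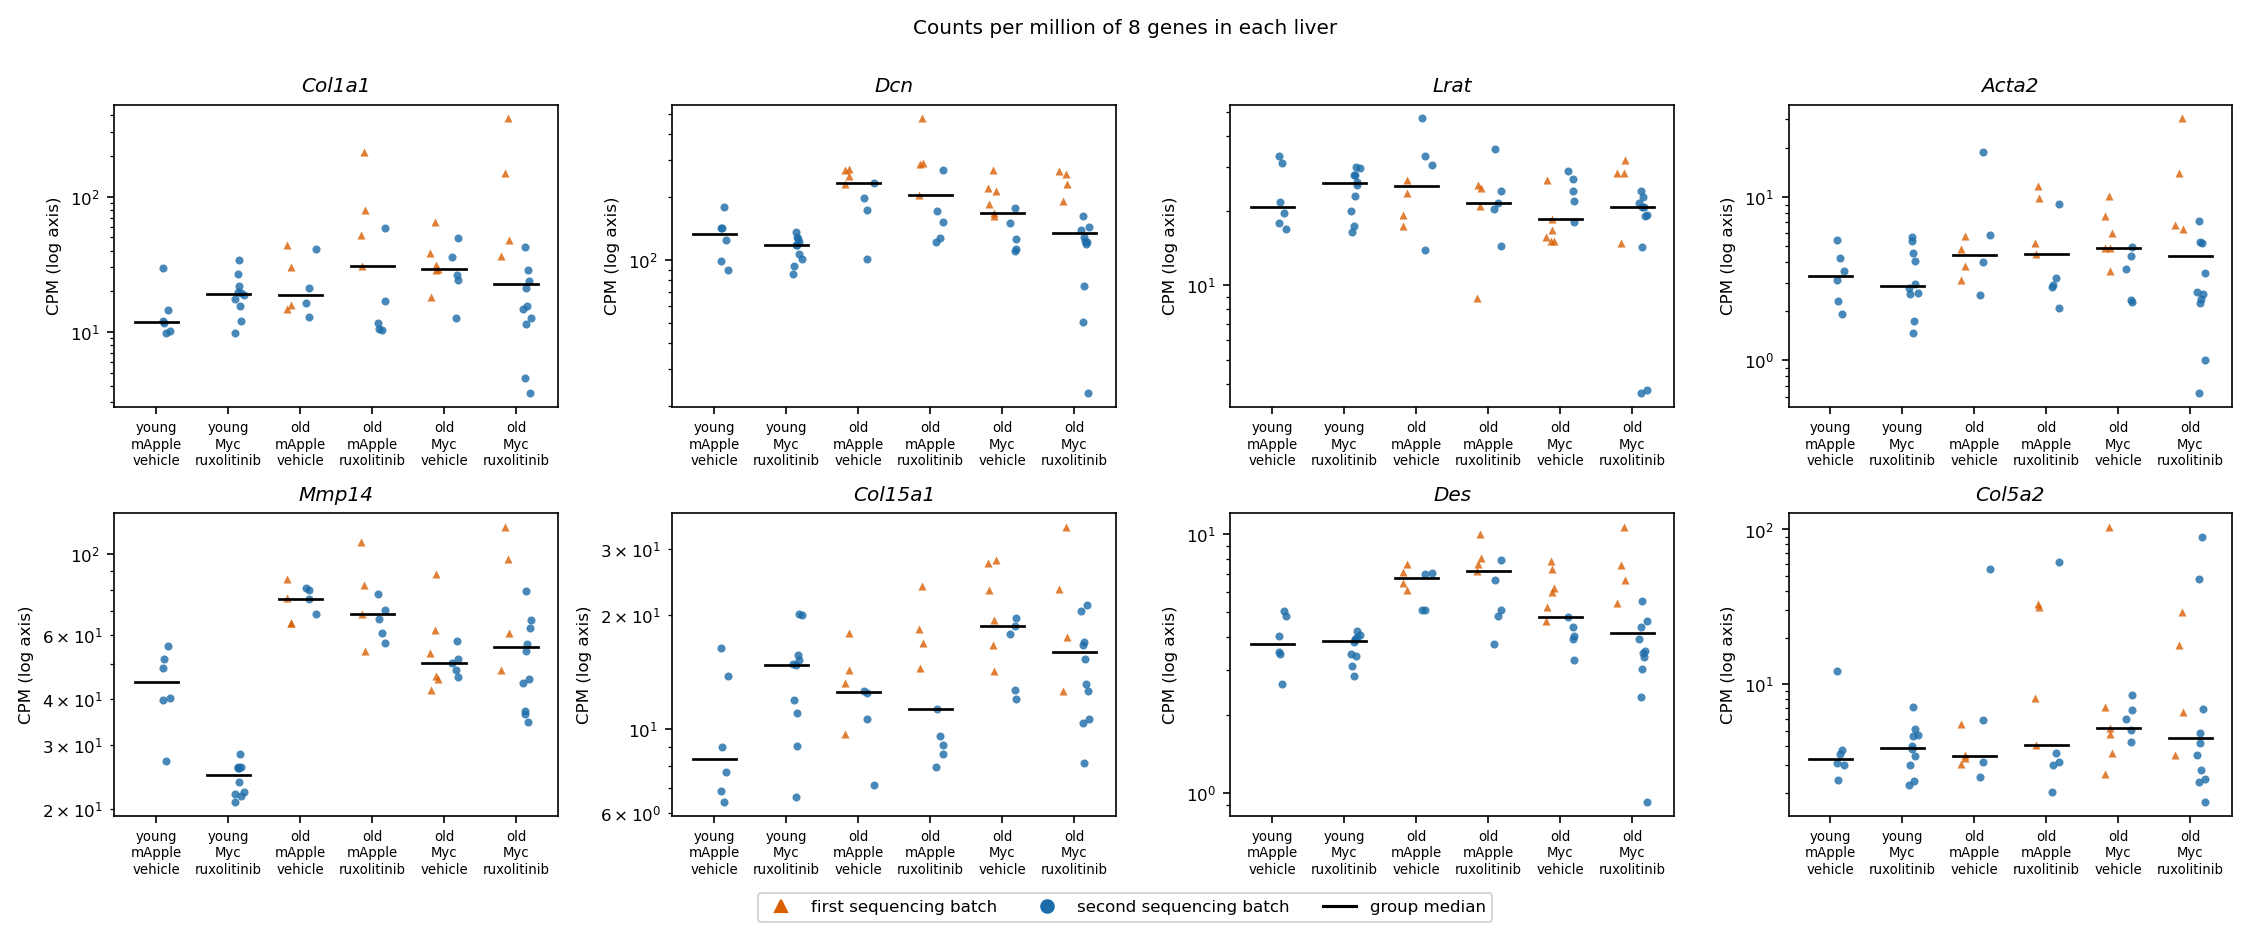
Levels in CPM (vertical axis, log scale) of 8 genes in each of the 58 livers, by group (horizontal axis); triangles are the first batch, circles the second, bars the group medians. Mmp14 is lowest in young Myc ruxolitinib livers (20.9, 24.8 and 28.3 CPM, lowest, median and highest), Col5a2 is high in a few livers of several groups, and Col1a1, Dcn, Lrat and Acta2 are low in libraries 1149 and 1154.

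Among the companion genes the TGF-beta pathway list had 11 of 24 tested genes lower and 0 higher with Myc in old vehicle livers, with a median of -0.29. Of all 13578 genes tested 1096 were lower and 1473 higher. Lists of other cell types moved in the same livers: 11 of the 12 sinusoidal endothelial genes were lower (median -0.46) and 4 of the 14 hepatocyte genes (median -0.15), while 14 of the 15 proliferation genes were higher (median 1.66). The sinusoidal endothelial level was 4.94 to 5.86 with mApple and 4.57 to 5.57 with Myc (mean log2(CPM + 1)), the hepatocyte level 11.12 to 11.48 and 10.82 to 11.50, and the proliferation level 1.25 to 2.04 and 1.77 to 3.94. The part of these lists in the members' and the TGF-beta pathway results was not tested. The lower TGF-beta pathway genes include Ski, a repressor of SMAD signalling (-0.54 ± 0.11, edgeR adjusted p = 0.00147) and the co-receptor Tgfbr3 (-0.49 ± 0.10, edgeR adjusted p = 0.00216). Fn1, fibronectin, which hepatocytes secrete in large amounts, fell by 0.61 (SE 0.11, edgeR adjusted p = 0.00109). The PDGF ligand gene Pdgfa (-0.81 ± 0.20, edgeR adjusted p = 0.00670) and the laminin gene Lama5 (-0.58 ± 0.12, edgeR adjusted p = 0.00280) fell, and the collagenase gene Mmp13 rose (1.46 ± 0.38, edgeR adjusted p = 0.0104). Of the 14 laminins and linkers 4 were lower, and of the 16 separate stellate cell markers tested 2 were lower. With ruxolitinib 4 of the 24 TGF-beta pathway genes were lower, including Bambi (-0.89 ± 0.18, edgeR adjusted p = 0.00154), a decoy TGF-beta receptor. Of all 14029 genes tested there 833 were lower.

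Old and young livers were compared within the second batch, which holds all young mice. With mApple and vehicle, 4 old livers were compared with 6 young ones, and 38 of the 39 members tested had estimates above 0 (Lox had too few counts to be tested). Only Mmp14 was called by edgeR, 1 of 39, where 1.11% of all 13196 genes were. The median of the 39 was 0.49, beside -0.011 for all genes. DESeq2 called 6 members higher, where it called 5.03% of all genes, and limma voom 16, where it called 12.4%. In a single fit of all 58 libraries, which adds first-batch old livers, 0 were called and the median was 0.18. Mmp14 levels were 68.4, 75.2, 79.6 and 80.9 CPM in the 4 old livers, and 27.1, 44.5 and 56.1 CPM (lowest, median and highest) in the young ones. The groups did not overlap, and the difference was 0.79 ± 0.17 (edgeR adjusted p = 0.0443). It was no longer called without any of 7 of the 10 libraries (1130, 1131, 1133, 1135, 1136, 1137 and 1138). Mmp2, the gelatinase that MT1-MMP activates, was 4.92, 4.94, 5.18 and 7.04 CPM in the old livers and 1.36, 2.98 and 3.57 CPM in the young ones. The Mmp2 groups did not overlap either, and the difference of 1.01 ± 0.24 missed the threshold (edgeR adjusted p = 0.0671). The same held for Timp2 (20.5 to 32.4 CPM in old and 11.3 to 19.1 CPM in young livers) and Des (5.11 to 7.12 and 2.63 to 5.07 CPM), neither of them called. How many of all genes separate these small groups was not counted. Library 1129, a young liver with a mean level of 4.19, the highest of its group, bears on these values: without it 6 members were called (Col6a2, Timp1, Mmp2, Mmp14, Vim and Thy1), where 3.9% of all genes were, and the median was 0.62. Without library 1136, an old liver, 0 were called, 3 estimates changed sign and the median was 0.28.

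The monocyte and macrophage list moved with age in the same livers: 4 of its 10 genes were called higher, with a median difference of 1.55. Its level ranged from 2.63 to 3.54 in old and from 1.61 to 2.37 in young livers (mean log2(CPM + 1)). The other immune lists had positive medians too: neutrophil (3 of 3 tested genes higher, median 2.23), T and NK cell (1 of 6, 1.25), B and plasma cell (1 of 7, 1.03), leukocyte (1 of 6, 0.89) and Kupffer cell (0 of 10, 0.84). The hepatocyte and proliferation medians were negative (-0.27 and -0.46). Of all 13196 genes tested 112 were higher. The part of these lists in the members' estimates was not tested. Companion genes called with age in mApple vehicle livers were Lama5 (0.84 ± 0.17, edgeR adjusted p = 0.0394) and the TGF-beta receptor gene Tgfbr2 (0.51 ± 0.10, edgeR adjusted p = 0.0387), both higher in old livers.

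With Myc and ruxolitinib, 10 old livers were compared with 10 young ones, and here the members split. Of 38 tested (Lox and Timp1 had too few counts), 7 were called by edgeR, 2 higher and 5 lower in old livers, where 33.6% of all 12768 genes were called. Of all genes, 2302 were higher and 1990 lower. The median of the 38 was -0.085, beside 0.016 for all genes. Mmp14 levels were 34.6, 49.9 and 79.4 CPM in old livers and 20.9, 24.8 and 28.3 CPM in young ones, with no overlap. The difference was 1.08 ± 0.13 (edgeR adjusted p = 3.58e-06), called under each alternative fit and whichever library was left out. Reln, which encodes the secreted glycoprotein reelin and marks stellate cells in liver, had 9.20, 31.7 and 50.5 CPM in old and 35.1, 56.4 and 87.0 CPM in young livers. The Reln ranges overlapped, and it fell by 0.96 (SE 0.25, edgeR adjusted p = 0.00572), also under each alternative fit and without each library.

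The basement membrane chains Col4a1 (-0.64 ± 0.24, edgeR adjusted p = 0.0436) and Col4a2 (-0.69 ± 0.21, edgeR adjusted p = 0.0154) fell, as did Sparc (-0.51 ± 0.19, edgeR adjusted p = 0.0389) and the crosslinking enzyme gene Loxl2 (-0.67 ± 0.23, edgeR adjusted p = 0.0271). These 4 calls were absent from a single fit of all 58 libraries. The Col4a1 call was lost without any of 10 of the 20 libraries and the Sparc call without any of 8, while Col4a2 kept its call without each. Col5a2, a chain of the collagen that sets fibril width, rose by 2.04 ± 0.70 (edgeR adjusted p = 0.0298). Its levels were 1.74, 3.86 and 89.6 CPM in old and 2.22, 3.89 and 7.12 CPM in young livers, so the medians were alike and 2 old livers, libraries 1157 and 1156 (89.6 and 47.9 CPM), stood far above the rest. The Col5a2 call was lost without either of them, and also with DESeq2 and with limma voom, and its lowest estimate under an alternative fit was 0.79. Libraries 1149 and 1154 are among these old livers: without both, 14 of 38 members were called, 8 higher and 6 lower, where 37.5% of all genes were called, and the median turned to 0.10. It was 0.031 without library 1149 alone and 0.087 in the single fit. Without library 1119 or without library 1125, both young, 4 were called (Col5a2, Col4a2, Mmp14 and Reln). Leaving out 1 library at a time, 3827 to 4782 of all genes were called. Among the marker lists 8 of the 12 sinusoidal endothelial genes were lower in these old livers (median -0.52), while 6 of the 9 monocyte and macrophage genes tested (median 0.69) and 4 of the 10 Kupffer cell genes (median 0.26) were higher. The levels of these lists, in that order, were 3.49 to 5.04, 2.01 to 3.08 and 3.94 to 5.33 in old livers, and 4.53 to 5.33, 1.71 to 2.24 and 3.80 to 5.05 in young ones (mean log2(CPM + 1)). Their part in the members' changes was not tested. Companion genes called here included Serpine2, a protease inhibitor (0.85 ± 0.13, edgeR adjusted p = 6.27e-05), Tgfbr2 (0.44 ± 0.082, edgeR adjusted p = 4.42e-04), Col8a1 (-1.30 ± 0.33, edgeR adjusted p = 0.00519) and Thbs1, an activator of latent TGF-beta (-1.23 ± 0.38, edgeR adjusted p = 0.0176).

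Livers with both Myc and ruxolitinib were compared with livers with neither, at each age, so the effect of the vector and that of the drug cannot be told apart here. In young livers 2 of 38 members were called by edgeR, where 27.5% of all 12829 genes were, and the median was 0.081, beside -0.013 for all genes. Mmp14 levels were 27.1, 44.5 and 56.1 CPM with mApple and vehicle and 20.9, 24.8 and 28.3 CPM with Myc and ruxolitinib. A single mApple liver, library 1134 (27.1 CPM), lay within the range of the others, and the difference was -0.86 ± 0.12 (edgeR adjusted p = 2.32e-05). Fbln5, an elastic fibre protein gene, had 4.51, 5.89 and 6.83 CPM with mApple and vehicle and 5.21, 7.56 and 9.19 CPM with Myc and ruxolitinib, overlapping, and rose by 0.42 ± 0.13 (edgeR adjusted p = 0.0207). Without library 1131 the Fbln5 call was lost, and without library 1129, 12 of 39 members were called, where 29.3% of all 12891 genes were, 11 of them beside Mmp14: Col1a1, Col1a2, Col3a1, Col4a1, Col4a2, Col14a1, Fbln5, Fbn1, Postn, Sparc and Loxl2.

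In old livers of the second batch, 10 with Myc and ruxolitinib against 4 with mApple and vehicle, 38 of 40 estimates lay below 0, with a median of -0.63, beside -0.011 for all genes. Tgfb1 was the 1 member called by edgeR, where 10.9% of all 13789 genes were (600 lower and 905 higher). Its levels were 10.3, 11.6, 18.2 and 21.1 CPM in the mApple vehicle livers, and 4.52, 8.92 and 12.9 CPM (lowest, median and highest) in the Myc ruxolitinib livers. The groups overlapped, and the difference was -0.84 ± 0.26 (edgeR adjusted p = 0.0485). That call was lost without any of 10 of the 14 libraries (1135, 1136, 1137, 1151, 1152, 1153, 1154, 1155, 1157 and 1158), and in a single fit of all 58 libraries the estimate was 0.39 and the median of the 40 0.08. The single fit adds first-batch old livers to both groups, among them libraries 860 and 861 with 186 and 137 CPM of Tgfb1. Without libraries 1149 and 1154 the median was -0.43 and 4 members were called lower (Col4a2, Timp2, Tgfb1 and Des), where 12.4% of all genes were called. In these livers 10 of the 12 sinusoidal endothelial genes were lower (median -0.84), at a level of 4.94 to 5.51 with mApple and vehicle and of 3.49 to 5.04 with Myc and ruxolitinib (mean log2(CPM + 1)). The Kupffer cell list (0 of 10 called) had a median of -0.57 and the leukocyte list (0 of 6) of -0.58, and 7 of the 15 proliferation genes were higher (median 1.94). Their levels were 4.498 to 6.07, 3.23 to 4.25 and 1.25 to 2.04 with mApple and vehicle, and 3.94 to 5.33, 2.34 to 3.91 and 2.00 to 4.11 with Myc and ruxolitinib. The part of these lists in the members' values was not tested. The members nearest to the threshold were Mmp14 (-0.59 ± 0.18, edgeR adjusted p = 0.0512) and Des (-0.82 ± 0.30, edgeR adjusted p = 0.0917).

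The difference between the age effect with Myc and ruxolitinib and that with mApple and vehicle was tested in 1 fit of the 4 groups. By edgeR 0 of 40 members were called, where 0.256% of all 13652 genes were, and 12 were under an unadjusted p of 0.05, where 14% of all genes were. DESeq2 called 0. Limma voom called 7, all negative (Col4a1, Col4a2, Loxl2, Timp2, Tgfb1, Lrat and Reln), where it called 4.43% of all genes. The median of the 40 was -0.62, beside 0.0078 for all genes, and -0.36 without libraries 1149 and 1154 and -0.027 in a single fit of all 58 libraries. For Mmp14 the difference was 0.26 ± 0.22 (edgeR adjusted p = 0.625), for Col4a2 -1.20 ± 0.36 (edgeR adjusted p = 0.118) and for Reln -1.25 ± 0.43 (edgeR adjusted p = 0.176).

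**Figure D5:**
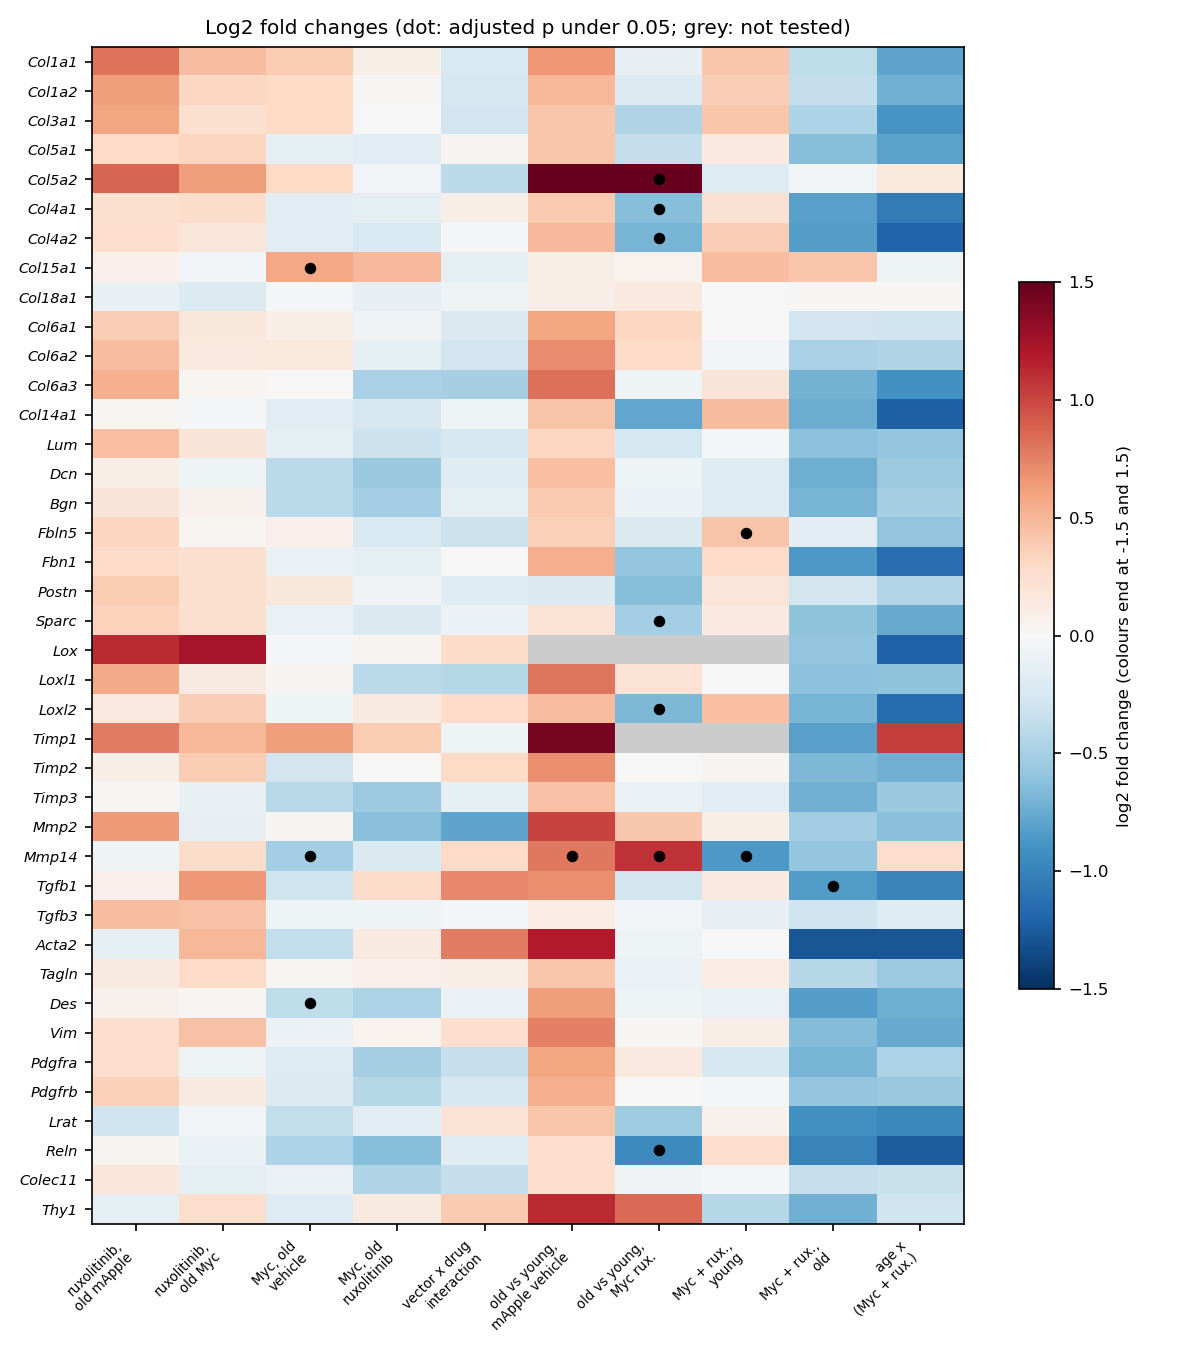
Log2 fold changes of the 40 genes (vertical axis, by role) in the 10 comparisons (horizontal axis); red is higher in the first-named group, blue lower, grey not tested, and dots mark an edgeR adjusted p under 0.05. Mmp14 has 4 dots, Col15a1 and Des 1 each with Myc in old vehicle livers, and the 2 ruxolitinib columns have none.

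The remaining values are given by role, with levels as lowest, median and highest CPM and differences as log2 ± SE from edgeR. Levels of the old groups pool both batches, while the young groups hold the second alone. These levels therefore do not compare the ages, and the age differences, fitted within the second batch, do. The fibrillar collagens form the bulk of scar tissue. Col1a1, the larger share of type I collagen, at chr11:94936224-94953042 on the plus strand, had 9.88, 11.8 and 29.9 CPM in young mApple vehicle livers and 9.73, 19.0 and 34.0 CPM in young Myc ruxolitinib livers. In old livers it had 12.9, 18.8 and 43.7 CPM with mApple and vehicle, 10.3, 30.8 and 215 with mApple and ruxolitinib, 12.7, 29.3 and 64.7 with Myc and vehicle and 3.52, 22.4 and 381 with Myc and ruxolitinib. The ranges of all groups overlapped, and the highest values were those of library 861 (381 CPM) and library 865 (215 CPM). Col1a1 differences (log2, ± SE) were 0.82 ± 0.51 for ruxolitinib in old mApple livers, 0.46 ± 0.48 for ruxolitinib in old Myc livers, 0.38 ± 0.29 for Myc in old vehicle livers, 0.093 ± 0.48 for Myc in old ruxolitinib livers and -0.22 ± 0.72 for the vector-by-drug interaction. The others were 0.65 ± 0.37 for age in mApple vehicle livers, -0.13 ± 0.34 for age in Myc ruxolitinib livers, 0.42 ± 0.26 for Myc with ruxolitinib in young livers, -0.38 ± 0.51 for the same contrast in old livers and -0.80 ± 0.58 for the difference between the age effects. None passed the threshold, with adjusted p from 0.254 to 0.960.

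Col3a1, the chain of type III collagen, had medians of 26.7 CPM (young mApple vehicle), 44.5 (young Myc ruxolitinib), 34.4 (old mApple vehicle), 44.8 (old mApple ruxolitinib), 49.0 (old Myc vehicle) and 39.3 (old Myc ruxolitinib), within a range over all livers of 6.58 to 283 CPM. Col3a1 differences (log2, ± SE) were 0.59 ± 0.42 for ruxolitinib in old mApple livers, 0.24 ± 0.41 for ruxolitinib in old Myc livers, 0.29 ± 0.27 for Myc in old vehicle livers, -0.011 ± 0.41 for Myc in old ruxolitinib livers and -0.29 ± 0.62 for the vector-by-drug interaction. The others were 0.42 ± 0.39 for age in mApple vehicle livers, -0.45 ± 0.32 for age in Myc ruxolitinib livers, 0.41 ± 0.25 for Myc with ruxolitinib in young livers, -0.47 ± 0.50 for the same contrast in old livers and -0.88 ± 0.57 for the difference between the age effects, with adjusted p from 0.248 to 0.991. Col5a2 stood apart in its distribution: it had 29.4 to 104 CPM in 8 livers and at most 18.0 CPM in the rest. The 8 were spread over the 4 old groups, with library 866 (old Myc vehicle, 104 CPM) and library 1157 (old Myc ruxolitinib, 89.6 CPM) the highest. In the same 8 livers its neighbour Col3a1 had 49.5 to 283 CPM.

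Of the basement membrane collagens, Col4a1 had medians from 35.6 CPM (young mApple vehicle) to 52.2 CPM (old mApple ruxolitinib), and its ranges overlapped in all groups. Col4a1 differences (log2, ± SE) were 0.24 ± 0.29 for ruxolitinib in old mApple livers, 0.27 ± 0.29 for ruxolitinib in old Myc livers, -0.16 ± 0.17 for Myc in old vehicle livers, -0.13 ± 0.28 for Myc in old ruxolitinib livers and 0.083 ± 0.44 for the vector-by-drug interaction. The others were 0.40 ± 0.26 for age in mApple vehicle livers, -0.64 ± 0.24 for age in Myc ruxolitinib livers, 0.23 ± 0.18 for Myc with ruxolitinib in young livers, -0.82 ± 0.36 for the same contrast in old livers and -1.05 ± 0.41 for the difference between the age effects, and the age effect with Myc and ruxolitinib is the 1 that was called. Col18a1 had medians from 1003 CPM (old mApple ruxolitinib) to 1279 CPM (young mApple vehicle) and was not called in any comparison, with differences from -0.20 to 0.15. It was lowest in library 860 (449.7 CPM), where the hepatocyte list was low too.

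Dcn, decorin, binds collagen fibrils and TGF-beta. It had 89.4, 133 and 179 CPM in young mApple vehicle livers, 85.9, 117 and 136 in young Myc ruxolitinib livers, 102, 232 and 271 in old mApple vehicle livers, 122, 205 and 476 in old mApple ruxolitinib livers, 110.5, 169 and 269.5 in old Myc vehicle livers and 23.0, 134 and 267 in old Myc ruxolitinib livers. All the groups overlapped, and the lowest value was that of library 1149. Dcn differences (log2, ± SE) were 0.086 ± 0.19 for ruxolitinib in old mApple livers, -0.066 ± 0.21 for ruxolitinib in old Myc livers, -0.39 ± 0.14 for Myc in old vehicle livers, -0.55 ± 0.24 for Myc in old ruxolitinib livers and -0.18 ± 0.31 for the vector-by-drug interaction. The others were 0.45 ± 0.23 for age in mApple vehicle livers, -0.07 ± 0.23 for age in Myc ruxolitinib livers, -0.19 ± 0.13 for Myc with ruxolitinib in young livers, -0.73 ± 0.36 for the same contrast in old livers and -0.54 ± 0.39 for the difference between the age effects. The Myc difference with vehicle missed the threshold (edgeR adjusted p = 0.0531) and was called by DESeq2, by limma voom, with RLE scaling and without library 1137, 1147 or 866. Beside it, Reln (-0.46 ± 0.17, edgeR adjusted p = 0.0615), Timp3 (-0.42 ± 0.16, edgeR adjusted p = 0.0665) and Bgn (-0.40 ± 0.18, edgeR adjusted p = 0.126) had estimates of like size.

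Among the proteases and inhibitors, Timp1, which blocks most matrix metalloproteases, had medians below 1 CPM in all groups (0.159 in young mApple vehicle, 0.0755 in young Myc ruxolitinib, 0.650 in old mApple vehicle, 0.846 in old mApple ruxolitinib, 0.728 in old Myc vehicle and 0.527 in old Myc ruxolitinib livers). Its highest value was 10.96 CPM, in library 861. Timp1 differences (log2, ± SE) were 0.78 ± 0.57 for ruxolitinib in old mApple livers, 0.50 ± 0.49 for ruxolitinib in old Myc livers, 0.63 ± 0.31 for Myc in old vehicle livers, 0.38 ± 0.49 for Myc in old ruxolitinib livers and -0.061 ± 0.76 for the vector-by-drug interaction. The others were 1.43 ± 0.49 for age in mApple vehicle livers, -0.81 ± 0.47 for Myc with ruxolitinib in old livers and 1.04 ± 0.80 for the difference between the age effects, with adjusted p from 0.161 to 0.988. Mmp2 had medians of 2.98 and 3.04 CPM in the young groups and of 4.63 to 5.34 CPM in the old groups, which pool both batches. Mmp2 differences (log2, ± SE) were 0.64 ± 0.38 for ruxolitinib in old mApple livers, -0.13 ± 0.30 for ruxolitinib in old Myc livers, 0.039 ± 0.21 for Myc in old vehicle livers, -0.62 ± 0.35 for Myc in old ruxolitinib livers and -0.79 ± 0.49 for the vector-by-drug interaction. The others were 1.01 ± 0.24 for age in mApple vehicle livers, 0.41 ± 0.29 for age in Myc ruxolitinib livers, 0.10 ± 0.22 for Myc with ruxolitinib in young livers, -0.52 ± 0.39 for the same contrast in old livers and -0.63 ± 0.46 for the difference between the age effects, with adjusted p from 0.0671 to 0.918.

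Tgfb1 had medians of 8.65 and 9.90 CPM in young mApple vehicle and young Myc ruxolitinib livers, 22.4 and 16.7 CPM in old mApple livers with vehicle and ruxolitinib, and 13.8 and 10.5 CPM in old Myc livers with vehicle and ruxolitinib. The batches differed in it: the first-batch old mApple vehicle livers had 23.7, 25.5, 25.9 and 26.2 CPM and those of the second batch 10.3, 11.6, 18.2 and 21.1 CPM. Libraries 860 (186 CPM) and 861 (137 CPM) were the highest, and Tgfb1 followed the monocyte and macrophage list with Spearman's rho 0.73 and Pearson's r 0.80 (permutation, adjusted p = 7.09e-05 and 5.96e-05, r = 0.75 without the 2 libraries farthest from the median). Tgfb1 differences (log2, ± SE) were 0.071 ± 0.23 for ruxolitinib in old mApple livers, 0.65 ± 0.36 for ruxolitinib in old Myc livers, -0.30 ± 0.13 for Myc in old vehicle livers, 0.27 ± 0.31 for Myc in old ruxolitinib livers and 0.72 ± 0.50 for the vector-by-drug interaction. The others were 0.69 ± 0.26 for age in mApple vehicle livers, -0.27 ± 0.17 for age in Myc ruxolitinib livers, 0.15 ± 0.17 for Myc with ruxolitinib in young livers, -0.84 ± 0.26 for the same contrast in old livers and -0.99 ± 0.32 for the difference between the age effects.

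Acta2 had medians of 3.31 and 2.84 CPM in young mApple vehicle and young Myc ruxolitinib livers and of 4.33 to 4.87 CPM in the old groups, which pool both batches. In old Myc ruxolitinib livers Acta2 ranged from 6.37 to 30.4 CPM in the first batch and from 0.629 to 7.11 CPM in the second. Its highest values were 30.4 CPM in library 861 and 18.8 CPM in library 1137, an old mApple vehicle liver in which Dcn, Pdgfrb and Reln were the lowest of their group. Acta2 differences (log2, ± SE) were -0.15 ± 0.44 for ruxolitinib in old mApple livers, 0.50 ± 0.35 for ruxolitinib in old Myc livers, -0.37 ± 0.36 for Myc in old vehicle livers, 0.14 ± 0.39 for Myc in old ruxolitinib livers and 0.78 ± 0.60 for the vector-by-drug interaction. The others were 1.19 ± 0.48 for age in mApple vehicle livers, -0.073 ± 0.35 for age in Myc ruxolitinib livers, 0.00068 ± 0.27 for Myc with ruxolitinib in young livers, -1.29 ± 0.54 for the same contrast in old livers and -1.29 ± 0.63 for the difference between the age effects, with adjusted p from 0.134 to 0.999. Vim and Tagln, the other cytoskeletal genes beside Des, were called in no comparison.

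Pdgfrb, the receptor through which PDGF drives stellate cells to divide, had medians of 11.3 and 10.5 CPM in young mApple vehicle and young Myc ruxolitinib livers, and of 17.4, 18.6, 14.3 and 13.1 CPM in old mApple vehicle, old mApple ruxolitinib, old Myc vehicle and old Myc ruxolitinib livers. Pdgfrb differences (log2, ± SE) were 0.36 ± 0.25 for ruxolitinib in old mApple livers, 0.14 ± 0.27 for ruxolitinib in old Myc livers, -0.21 ± 0.18 for Myc in old vehicle livers, -0.43 ± 0.29 for Myc in old ruxolitinib livers and -0.24 ± 0.39 for the vector-by-drug interaction. The others were 0.54 ± 0.26 for age in mApple vehicle livers, 0.0043 ± 0.25 for age in Myc ruxolitinib livers, -0.025 ± 0.14 for Myc with ruxolitinib in young livers, -0.58 ± 0.41 for the same contrast in old livers and -0.56 ± 0.42 for the difference between the age effects, with adjusted p from 0.296 to 0.992. Lrat, which esterifies retinol for storage and marks quiescent stellate cells, had medians from 18.5 CPM (old Myc vehicle) to 25.9 CPM (young Myc ruxolitinib). It was lowest in libraries 1154 (3.66 CPM) and 1149 (3.78 CPM). Lrat differences (log2, ± SE) were -0.30 ± 0.23 for ruxolitinib in old mApple livers, -0.045 ± 0.26 for ruxolitinib in old Myc livers, -0.36 ± 0.17 for Myc in old vehicle livers, -0.16 ± 0.29 for Myc in old ruxolitinib livers and 0.21 ± 0.38 for the vector-by-drug interaction. The others were 0.42 ± 0.29 for age in mApple vehicle livers, -0.53 ± 0.27 for age in Myc ruxolitinib livers, 0.061 ± 0.16 for Myc with ruxolitinib in young livers, -0.91 ± 0.42 for the same contrast in old livers and -0.97 ± 0.46 for the difference between the age effects, with adjusted p from 0.129 to 0.950. Thy1, a surface glycoprotein of portal fibroblasts and T cells, had estimates of 1.12 ± 0.31 and 0.85 ± 0.36 with age (edgeR adjusted p = 0.0990 and 0.0723). The T and NK cell list was its closest marker list, though only 2 of the 12 genes of that list had a median above 1 CPM.

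The other members are given by their median over the 58 livers and the range of their differences (log2) over the comparisons in which they were tested, none of which was called. Among the collagens, Col1a2, the partner chain of Col1a1, had 23.6 CPM (-0.72 to 0.63), Col5a1, a chain of the collagen that nucleates fibrils, 13.7 CPM (-0.80 to 0.42), and Col14a1, which binds the fibril surface, 48.7 CPM (-1.22 to 0.48). Of the collagen VI chains, Col6a1 had 12.8 CPM (-0.30 to 0.59), Col6a2 8.07 CPM (-0.49 to 0.71) and Col6a3 17.3 CPM (-0.91 to 0.82). The proteoglycan genes Bgn and Lum had 129 CPM (-0.70 to 0.40) and 8.46 CPM (-0.62 to 0.45).

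Fbn1, the main protein of microfibrils, had 3.59 CPM (-1.14 to 0.54), and Postn, periostin, 9.12 CPM (-0.64 to 0.38). The crosslinking enzyme genes Lox and Loxl1 had 0.518 CPM (-1.21 to 1.24) and 2.62 CPM (-0.61 to 0.80). The inhibitor genes Timp2 and Timp3 had 20.0 CPM (-0.72 to 0.70) and 41.3 CPM (-0.72 to 0.44).

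Tgfb3, another TGF-beta ligand, had 1.76 CPM (-0.30 to 0.46). Tagln, a smooth muscle actin-binding protein gene, had 8.47 CPM (-0.54 to 0.42), and Vim 32.9 CPM (-0.75 to 0.75). Pdgfra, the sister receptor of Pdgfrb, had 7.32 CPM (-0.70 to 0.59), Colec11 24.4 CPM (-0.46 to 0.26) and Thy1 1.52 CPM (-0.72 to 1.12).

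Over the 10 comparisons Mmp14 was called in 4, and Col15a1, Des, Col5a2, Col4a1, Col4a2, Sparc, Loxl2, Reln, Fbln5 and Tgfb1 in 1 each. The remaining members, among them Col1a1, Col1a2, Col3a1, Acta2, Timp1 and Pdgfrb, were called in none by edgeR.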

How the data were processed

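Whole-liver polyA RNA-seq (2 x 75 bases) of 58 mice was used. Per the submitters' processing notes and the file headers, the authors aligned reads with STAR to mm10 and deposited estimated counts over exons from HOMER, with 1 transcript per gene symbol and no strand setting; versions are not given in the sources used here. The deposited expected counts came in steps of 0.5 (29.9% not whole) and were rounded to whole numbers. Library totals of 10.68 to 40.98 M counts set the precision. Libraries of 1 group and batch all differed beyond sampling noise (164 pairs, smallest chi-square per degree of freedom 7.57).

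Groups came from the labels. Each comparison was fitted on its own groups with edgeR 4.0.16 (R 4.3.3; TMM, filterByExpr with a minimum count of 10, quasi-likelihood test, a batch term where both batches entered). The vector-by-drug interaction was fitted on the 4 old groups and the difference between age effects on 4 groups of the second batch. P-values were adjusted by Benjamini-Hochberg over all genes tested, with a threshold of 0.05. The fit was tested on simulated data. Alternatives were RLE size factors, DESeq2 1.42.0, limma 3.58.1 voom with quality weights, no filter on low counts, a single fit of all 58 libraries, no batch term, single batches and leaving out libraries. For comparisons held to the second batch, the single fit also took in the old livers of the first. Leaving out libraries 1149 and 1154 was added after seeing the data.

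The 40 genes, the companion lists and the marker lists were chosen with earlier results of these data known. The named genes are Col1a1, Col3a1, Col4a1, Dcn, Timp1, Mmp2, Tgfb1, Acta2, Pdgfrb and Lrat in each comparison, beside those with the smallest p per role and up to 2 called genes per companion list.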

Additional observations from a re-analysis of the deposited data

Results flagged for a closer look

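The mean level and single genes, 20 results in all, were checked in the 4 groups of at most 10 livers for 1 liver lying far from all others. Of these 80 combinations 12 stood out. Chance gives about 1 in 20 for independent checks, but these genes vary together, so that rate does not apply. Batches within a group were not separated. All 12 came from 3 livers.

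Library 1137, an old mApple vehicle liver, had the lowest levels of its group in 4 genes, on the log2(CPM + 1) scale: Dcn at 6.68, the receptor gene Pdgfrb at 3.13, Fbln5 at 2.20 and Reln at 4.76. The same liver had the highest level of Acta2, at 4.31. Library 1136 of that group had the highest level of Col5a2, at 5.82.

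Library 1129, a young mApple vehicle liver, had the highest levels of its group in 6 genes. They were Col1a1 at 4.95, Col3a1 at 6.30, Col4a1 at 6.08, Col5a2 at 3.72, Loxl2 at 3.61 and Sparc at 6.58.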

How the results depend on the processing

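The counts below are of members called, out of 40 at most, and no cause of a change was tested. In brackets is the share or number of all genes tested that passed under the same setting. For ruxolitinib in old Myc livers, 1 member passed an unadjusted p of 0.05 (14.2%) and 6 were called in the first batch alone (6.8%). For Myc in old vehicle livers, the count was 10 unadjusted (4370 of 13578 genes), 6 with DESeq2 (21.7%) and 7 with limma voom (23.1%). It was 0 with first-batch livers alone (5.5%), 1 with second-batch livers alone (4.63%), and 2 to 8 leaving out 1 library (1914 to 3070 genes). For Myc in old ruxolitinib livers it was 6 unadjusted (29.6%), 1 with DESeq2 (18.5%), 5 in the single fit of 58 libraries (20.8%) and 1 in the second batch (10.9%). It was 1 without libraries 860, 861, 864 and 865 (14.7%), and 0 to 1 leaving out 1 library (1542 to 2248 genes). For age in mApple vehicle livers it was 16 unadjusted (2369 of 13196 genes), 6 with DESeq2 (5.03%) and 16 with limma voom (12.4%). It was 0 in the single fit (1.46%), and 0 to 6 leaving out 1 library (30 to 511 genes). For age in Myc ruxolitinib livers it was 14 without libraries 1149 and 1154 (37.5%), and 4 to 8 leaving out 1 library (3827 to 4782 genes). For Myc with ruxolitinib in young livers it was 5 unadjusted (4943 of 12829 genes), 6 with limma voom (36.6%), 1 in the single fit (17.7%), and 1 to 12 leaving out 1 library (3195 to 3794 genes). In old livers it was 12 unadjusted (3842 of 13789 genes), 2 with RLE size factors (11.2%), 2 with DESeq2 (15.7%) and 7 with limma voom (20.6%). It was 0 without a filter on low counts (7.01%), 3 in the single fit (23.9%), 4 without libraries 1149 and 1154 (12.4%), and 0 to 3 leaving out 1 library (533 to 1657 genes). There Tgfb1 turned from -0.84 to 0.39 in the single fit (edgeR adjusted p = 0.390), which also holds the first-batch old livers. For the difference between age effects it was 12 unadjusted and 7 with limma voom. Low counts limit Lox and Timp1, which were not tested in every comparison.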
